A study of Mus musculus with 2 samples.

Results

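The D-type cyclins, the kinases they activate and the inhibitors of those kinases were examined as a set of 9 genes in the open chromatin of the mouse ovary. The genes are Ccnd1, Ccnd2, Ccnd3, Cdk4, Cdk6, Cdkn1a, Cdkn1b, Cdkn2a and Cdkn2b, 9 of the 21951 protein-coding genes of the annotation. A peak was given to a gene where its centre lay inside the gene or where the nearest start site of a protein-coding transcript was the gene's. By this rule the genes held 114 peaks of the 109169 in replicate 1 and 108 of the 114462 in replicate 2. A promoter peak is one whose centre lay within 500 bp of any annotated start site of the gene.

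DNase-seq, which counts cuts by DNase I in DNA that nucleosomes leave accessible, was performed on whole ovary tissue. Both libraries came from females of the B6CASTF1/J strain, the F1 hybrid of C57BL/6J and CAST, 36 days old, with no treatment named in the labels. They form 1 group of 2 libraries, and both carry the same donor entry. The descriptions number them as different biological replicates, so each library was taken as 1 animal. That is an assumption, and n = 2 animals rests on it. With 1 group there is no contrast between conditions and no test, so values of both libraries are given with mean ± SD (n = 2).

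D-type cyclins are made in response to growth factors and hormones and activate the kinases Cdk4 and Cdk6, which phosphorylate the retinoblastoma protein and so release E2F factors that start DNA replication. The INK4 inhibitors, encoded at Cdkn2a and Cdkn2b, bind the kinases alone, and the CIP/KIP inhibitors p21 (Cdkn1a) and p27 (Cdkn1b) bind cyclin and kinase complexes. In the ovary, cyclin D2 is known for the hormone-driven division of granulosa cells, the cells that surround the oocyte in a follicle, and p27 for their exit from the cycle at luteinization and for the maintenance of resting primordial follicles.

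Each peak carries a signal value deposited by the authors on a scale that no label or header used here states, and the depth behind it is unknown. The median peak value was 0.808 in replicate 1 and 0.648 in replicate 2. Promoters were lower in replicate 2 across the genome, with a median log2 ratio of replicate 2 over replicate 1 of -0.88 over the 14510 genes open in both libraries. Marker promoters of granulosa cells were open in both libraries for 5 of 5 genes, of theca and luteal cells for 4 of 4 and of stroma for 3 of 3. Over all protein-coding genes the share was 66.1%. By their mean, the granulosa values ran from 0.632 and 0.491 at Fshr to 6.14 and 3.19 at Foxl2. Those of theca and luteal cells ran from 1.06 and 0.779 at Cyp11a1 to 3.80 and 2.14 at Star, and those of stroma from 0.319 and 0.635 at Dcn to 7.28 and 3.72 at Pdgfra. The oocyte markers Gdf9 and Dazl were open, while Zp3 and Ddx4 had no promoter peak in either library. Among the other cell types, 2 of 3 endothelial, 1 of 3 leukocyte and 1 of 2 adipocyte promoters were open, as were 3 of 3 of the oviduct, with 11.8 and 7.13 at the ciliated cell factor Foxj1, 1.26 and 0.975 at Pax8 and 0.475 and 0.504 at Ovgp1. Their part in the values below was not tested. In whole tissue, fewer cells with an open site and less opening per cell cannot be told apart.

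Promoter peaks were called at all 9 genes in each library, where 66.1% of all protein-coding genes have them in both. Their promoter value, the highest of a gene's promoter peaks, spanned, with the 500 bp rule, from 1.05 ± 0.246 at Ccnd1 to 13.1 ± 8.09 at Cdk4. The median over the 9 genes was 4.76, and the median over all open genes was 5.15. The mean value lay above that median for 3 of the 9 genes, Cdk4, Ccnd3 and Cdkn1b, where by definition 50% of open genes do. Sites away from the promoter were also counted. Of the 9 genes, 7 held at least 1 non-promoter peak found in both libraries, which is near the share of 66.1% over all genes. At least 5 were held by 6 of the 9 genes, against 21.6% of all genes. At least 2 promoter peaks in each library were present at 5 of the 9 genes, against 24.9% of all genes. By the rules used, such counts can rise with gene length, distance to other genes and the number of start sites. The genes ran from 4387 bp at Cdk4 to 189524 bp at Cdk6. The shares over all genes were not matched for this, and its part in the counts was not tested.

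**Figure D1:**
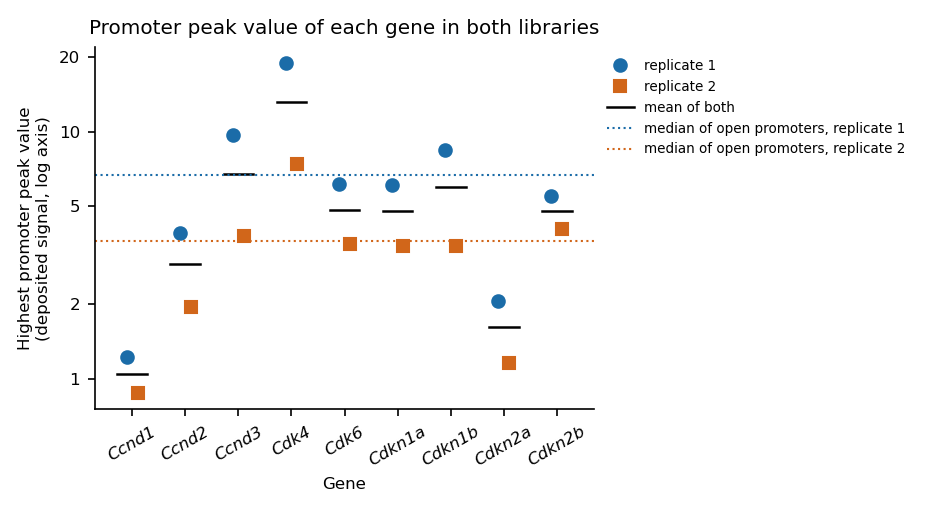
Promoter value (deposited signal, log axis) of the 9 genes, with circles for replicate 1, squares for replicate 2, a bar for their mean and dotted lines for each library's median over open promoters. Cdk4 is the highest gene in both libraries, at 18.8 and 7.39, Ccnd1 the lowest under the 500 bp rule, at 1.22 and 0.877 (3.96 as a mean with a reach of 1000 bp), and all 9 genes are lower in replicate 2.

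Ordered by the mean under the 500 bp rule, the promoter values ran Cdk4, Ccnd3, Cdkn1b, Cdk6, Cdkn2b, Cdkn1a, Ccnd2, Cdkn2a and Ccnd1. Replicate 1 alone gave Cdk4, Ccnd3, Cdkn1b, Cdk6, Cdkn1a, Cdkn2b, Ccnd2, Cdkn2a and Ccnd1, and in replicate 2 Cdkn2b stood second. The 3 genes Cdk6, Cdkn2b and Cdkn1a had means of 4.81 ± 1.86, 4.76 ± 1.01 and 4.75 ± 1.84, which differ by less than the spread between the libraries. That spread includes the lower level of replicate 2 across the genome. Within each library Ccnd3 stood above Cdk6, and Cdk6 narrowly above Cdkn1a. Their values were 9.67, 6.13 and 6.06 in replicate 1 and 3.80, 3.50 and 3.45 in replicate 2. Cdkn1b and Cdkn2b each changed sides of Cdk6 and Cdkn1a between the libraries. The places of Cdkn1b and Cdkn2b are thus not resolved. Ccnd1, Ccnd2 and Cdkn2a formed the low end, and the values of Ccnd1 and Cdkn2a overlapped, as did those of Cdkn2a and Ccnd2, although both libraries put the 3 in the same order. The last place of Ccnd1 holds for peak centres within 500 bp of a start site, since a reach of 1000 bp gives it 3.96, above Ccnd2 and Cdkn2a.

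The strongest site of each cyclin D gene lay inside the gene and was not a promoter peak. At Ccnd1 and Ccnd3 it was in an intron. At Ccnd2 its centre lay in an annotated exon with no coding or UTR label there. In all 3 cases the value there exceeded the promoter value in both libraries.

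Ccnd1, which encodes cyclin D1, lies on chr7:144929931-144939925 on the minus strand of mm10. Its promoter peak had 1.22 in replicate 1 and 0.877 in replicate 2, and 11.4% of open genes had a lower mean. A further promoter peak, 0.413 kb inside the gene, was called in replicate 1 alone with 0.423. The gene's highest site lay 2.28 kb inside the gene in an intron, with 5.05 and 2.87. With promoters drawn out to 1000 bp, or with any base of a peak within 500 bp, this intronic site counts as a promoter through the start of a retained-intron transcript, and the promoter value becomes 3.96. Upstream, the site at -1.68 kb had 3.61 and 2.90, and the one at -91.1 kb had 2.83 and 1.94. All of these are above the peak at the coding start in both libraries. A site at -3.53 kb, named after its values were seen, had 2.96 and 1.52. Ccnd1 held 9 shared non-promoter peaks, and 90.6% of all genes held fewer.

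Ccnd2, which encodes cyclin D2, lies on chr6:127125162-127152193 on the minus strand. Its promoter value was 3.88 and 1.96, a mean of 2.92 ± 1.36 that exceeded 30.7% of open genes, and came from the main coding start sites 1.17 kb inside the gene. The most upstream start site was flanked by a peak at -0.428 kb with 1.91 and 1.43 and another at 0.332 kb with 1.93 and 1.22. A broad peak at 1.72 kb (1.09, replicate 1), a peak at 1.71 kb (0.923, replicate 2) and one at -0.014 kb (0.687, replicate 2) completed the promoter peaks. Over the peak at -0.014 kb, the lowest q-value that the authors listed was lower in replicate 1, at 0.001014, than in replicate 2, at 0.03356. The promoter of Ccnd2 was thus open over several neighbouring intervals, which lie inside the antisense transcript 9330179D12Rik. DNase cuts carry no strand of transcription, so the gene and its antisense partner cannot be told apart here.

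The highest site of Ccnd2 lay 4.31 kb inside the gene, with 4.96 and 2.96. It is shown because a match to the CTCF motif, bound by the insulator protein CTCF, fell in a footprint of both libraries. A footprint is a short stretch protected from DNase within an open site. The footprint ran over 127147865 to 127147897 in replicate 1 and to 127147898 in replicate 2 and so shared one edge. In this and the other sequences, the strand of the gene is printed, and capitals mark motif matches of which at least 50% of the bases lay in a footprint of at least 1 library. The letters are those of the C57BL/6J reference mm10, and the CAST allele is not shown.
Ccnd2, chr6:127147781-127147980, minus strand: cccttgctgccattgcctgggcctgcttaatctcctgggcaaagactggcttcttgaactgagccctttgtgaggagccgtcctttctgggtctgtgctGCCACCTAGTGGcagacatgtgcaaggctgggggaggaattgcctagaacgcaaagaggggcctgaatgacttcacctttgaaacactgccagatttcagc

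Of the shared distal sites of Ccnd2, the one at -114 kb had 2.34 and 1.77 and the one at -2.89 kb had 1.75 and 1.15. The latter site, chosen for printing after its values were seen, held a STAT match (TTCNNNGAA), the palindrome of the STAT factors of cytokine signalling, in footprints of both libraries. Beside it lay a CRE match (TGACGTNA), the motif of the cAMP-responsive CREB and ATF factors, in a footprint of replicate 1. One footprint of 27 bp, 127155047 to 127155073, covered the CRE and most of the STAT match in replicate 1. Replicate 2 listed a footprint of 10 bp over the STAT match and another of 12 bp that touched the edge of the CRE. Of all shared non-promoter peaks, 8.99% held a STAT match within their central 300 bp and 3.18% of such matches lay in footprints of both libraries. For CRE these shares were 1.02% and 24.6%.
Ccnd2, chr6:127154941-127155220, minus strand: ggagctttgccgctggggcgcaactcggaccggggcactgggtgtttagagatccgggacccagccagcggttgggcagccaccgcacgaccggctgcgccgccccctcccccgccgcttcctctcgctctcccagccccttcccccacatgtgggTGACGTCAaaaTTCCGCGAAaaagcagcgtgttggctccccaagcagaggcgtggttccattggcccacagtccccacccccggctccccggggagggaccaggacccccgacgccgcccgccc

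Ccnd3, which encodes cyclin D3, lies on chr17:47505051-47599691 on the plus strand and has start sites in groups about its first exon and near its 3′ part. The peak at the first group had 4.32 and 2.68. A peak 88.4 kb further in, at start sites of shorter coding transcripts, had 9.67 and 3.80 and set the promoter value of 6.73 ± 4.15, above 62.4% of open genes. The internal start was the higher of the groups in each library. Next to it lay promoter peaks of 1.32 and 0.936 at 89.4 kb and of 1.10 and 0.779 at 90.9 kb. Overlapping intervals at 90.6 kb (1.21, replicate 1) and 90.8 kb (0.726, replicate 2) were called in addition. The strongest sites of the gene, however, were intronic, at 6.27 kb with 12.7 and 8.06 and at 3.09 kb with 7.65 and 5.50. The former was the second highest value among all peaks of the 9 genes in replicate 1 and the highest in replicate 2. A weaker intronic site at 6.86 kb had 1.61 and 1.75. The part of the internal promoter peak ahead of the coding start at 47593470 is shown for its SP/KLF match (GGGGCGGG or its complement CCCGCCCC), the GC-rich motif of the SP and Krüppel-like factors, which lay in footprints of 32 bp and 33 bp that began 1 bp apart.
Ccnd3, chr17:47593321-47593469, plus strand: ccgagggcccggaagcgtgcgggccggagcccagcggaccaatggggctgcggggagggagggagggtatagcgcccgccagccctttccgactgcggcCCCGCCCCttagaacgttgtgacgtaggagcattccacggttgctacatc

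The 2 kinase genes differed in promoter value and in the number of shared sites. Cdk4 had the highest promoter value of the set and no shared peak away from its start sites, while Cdk6 had a value near the median of open genes and the most shared sites. Cdk4 spans 4387 bp with 9 annotated start sites and Cdk6 spans 189524 bp, so the rule leaves Cdk6 far more room for such sites. The part of this room in the counts was not tested.

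Cdk4 lies on chr10:127063534-127067920 on the plus strand. Its promoter peak had 18.8 in replicate 1 and 7.39 in replicate 2, a mean of 13.1 ± 8.09 that exceeded 94.8% of open genes. The lowest q-value that the authors listed within 500 bp of the start was 2.081e-252 in replicate 1 and 2.631e-36 in replicate 2, the lowest of the 9 genes in both. Further promoter peaks lay by internal start sites, at 0.987 kb with 0.925 and 0.903, and at 2.65 kb with 0.475 in replicate 1 alone. The promoter peak held 10 footprints in replicate 1 and 9 in replicate 2, of which 7 of replicate 1 overlapped one of replicate 2. It is printed for its repeated E-boxes (CACGTG), the motif bound by Myc with Max and by USF factors. They lay at -168, -114, -94 and -7 bp from the start site. Those at -114 and -94 bp were in footprints of both libraries, the one at -168 bp in replicate 2 alone, and the one at -7 bp, in lower case, in neither. An SP/KLF match at -76 bp shared a footprint with the E-box at -94 bp in both libraries, and 2 more, at 16 and 21 bp inside the gene and not printed, were footprinted in both. A TCF match (CTTTGAT or its complement) was capitalised for replicate 1. Among all shared promoter peaks, 8.92% held an E-box and 22.6% of E-boxes lay in footprints of both libraries. For SP/KLF the shares were 28.2% and 54%.
Cdk4, chr10:127063241-127063533, plus strand: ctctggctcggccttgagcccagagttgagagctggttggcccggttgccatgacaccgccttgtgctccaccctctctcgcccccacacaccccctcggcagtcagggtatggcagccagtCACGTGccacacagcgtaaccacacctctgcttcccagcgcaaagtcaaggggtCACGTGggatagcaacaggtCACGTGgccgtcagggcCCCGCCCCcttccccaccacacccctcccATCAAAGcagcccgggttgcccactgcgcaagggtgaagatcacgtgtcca

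Cdk6 lies on chr5:3341485-3531008 on the plus strand. The peak at its most upstream start site had 1.86 and 1.32. Higher peaks surrounded the other coding starts, with 3.83 at 2.37 kb in replicate 1, 2.92 and 2.24 at 2.74 kb, 2.10 at 2.70 kb in replicate 2, and 6.13 and 3.50 at 3.06 kb over a coding exon. The peaks at 2.37 and 2.70 kb each overlapped the other library's peak at 2.74 kb, so neither is a site of 1 library alone. The peak at 3.06 kb gave the promoter value of 4.81 ± 1.86, above 47.3% of open genes. With the most upstream start site alone the value was 1.59. Between the groups of starts, the intronic site at 1.38 kb had 2.12 and 1.38. Cdk6 held 27 peaks in each library and 15 shared non-promoter peaks, more than 96.6% of all genes. Most were weak, and their values in the libraries were close. The intronic site at 150 kb had 1.54 and 1.29, and the one at 175 kb had 1.28 and 1.09. The farthest paired site upstream, at -195 kb, named after its values were seen, had 0.313 and 0.491. No motif match at Cdk6 lay in footprints of both libraries.

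**Figure D2:**
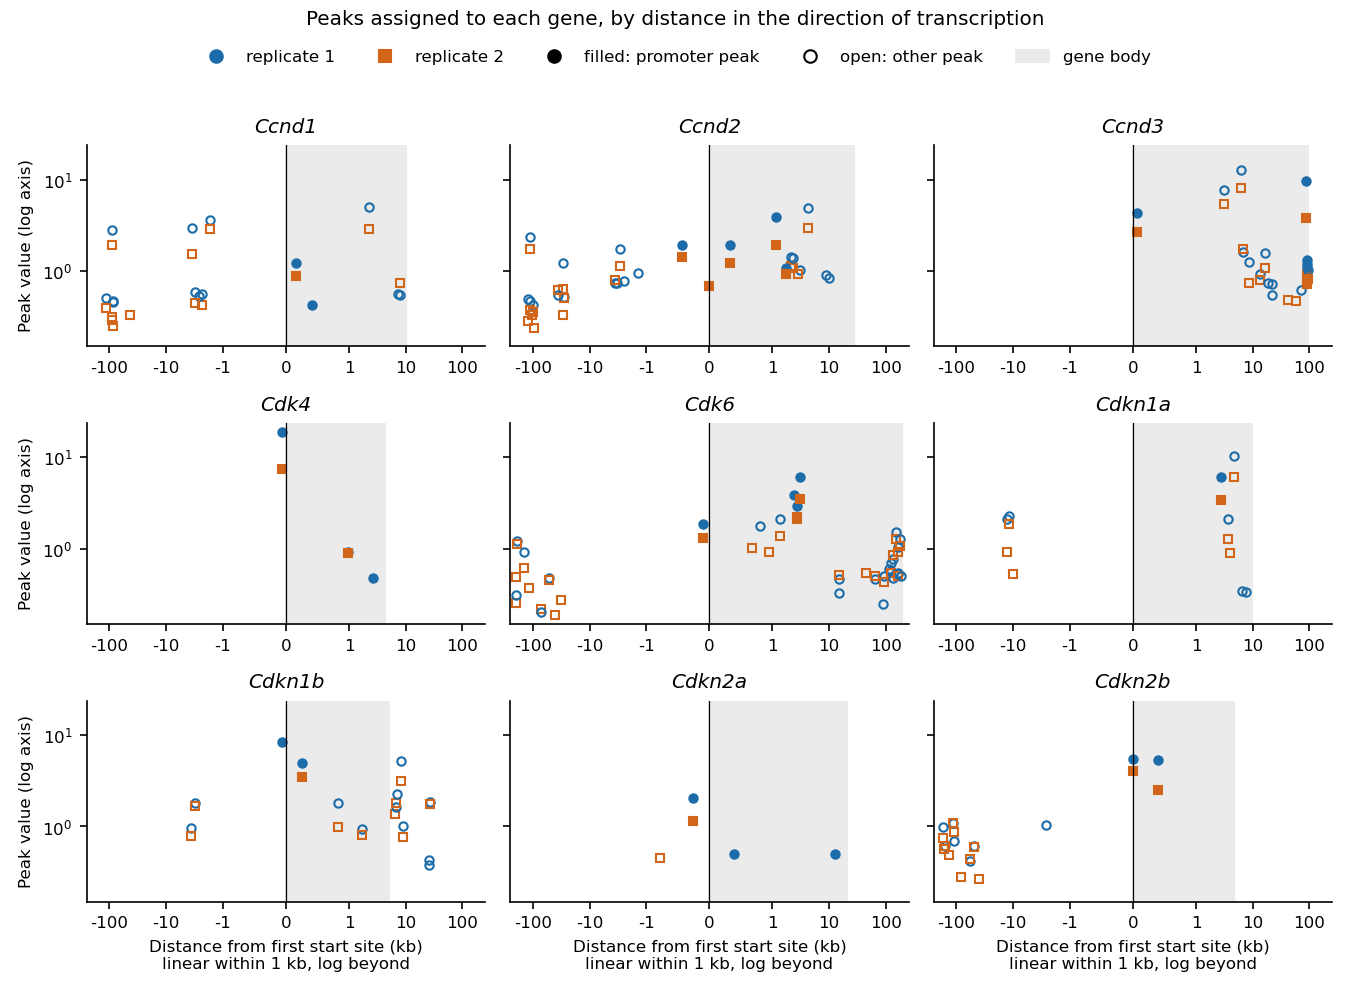
Peak values (log axis) of the 9 genes against the distance of the peak's centre from the most upstream start site in the direction of transcription (kb, linear within 1 kb and log beyond), with filled symbols for promoter peaks, open symbols for other peaks, blue circles for replicate 1, orange squares for replicate 2 and grey for the gene body. Ccnd1, Ccnd2, Ccnd3 and Cdkn1a have their highest values at open symbols inside the gene, while Cdk4 and Cdkn2a have no peak beyond their start sites that both libraries share.

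The CIP/KIP genes were open to similar levels, with more sites in reach of Cdkn1b than of Cdkn1a.

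Cdkn1a, which encodes p21, an inhibitor induced by p53 after DNA damage, lies on chr17:29090976-29100727 on the plus strand. The most upstream start sites had no promoter peak, and no base within 500 bp of them carried a listed q-value in either library. These lists reach up to 0.0499. The promoter value came from the coding start at 29093769, 2.75 kb further in, with 6.06 and 3.45 and a mean of 4.75 ± 1.84, above 46.7% of open genes. The gene's highest site was in an intron, at 4.62 kb, with 10.2 and 6.06. This intronic site exceeded the promoter by a similar factor in both libraries. Another intronic peak, at 3.67 kb, had 2.10 and 1.28. Upstream, a peak at -11.9 kb had 2.31 and 1.89 and lay at the start of Trp53cor1, the long non-coding RNA also called lincRNA-p21. Its neighbour at -12.6 kb, in the body of that transcript and named after its values were seen, had 2.14 and 0.916. No p53 motif was found in the central 300 bp of any paired peak of the 9 genes, where 0.0493% of all shared promoter peaks and 0.103% of the other shared peaks held one. The promoter is printed ahead of its coding start for the SP/KLF match in footprints of both libraries.
Cdkn1a, chr17:29093601-29093768, plus strand: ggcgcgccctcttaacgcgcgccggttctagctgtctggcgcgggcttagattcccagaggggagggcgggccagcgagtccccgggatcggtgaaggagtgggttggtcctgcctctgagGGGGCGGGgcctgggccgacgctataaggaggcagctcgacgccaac

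Cdkn1b, which encodes p27, lies on chr6:134920401-134925513 on the plus strand. Its promoter was called as separate peaks of 8.44 and 4.94 in replicate 1 and as 1 peak of 3.44 in replicate 2. The promoter value was therefore 8.44 and 3.44, a mean of 5.94 ± 3.53 above 56.4% of open genes, and the one-to-one pair of peaks had 4.94 and 3.44. The difference between the libraries at this gene includes the way the interval was divided. Downstream of the gene, the site at 8.17 kb was the strongest of its distal sites, with 5.26 and 3.13. Upstream, the site at -3.09 kb had 1.80 and 1.66. It held a match to the FOXO motif (TGTTTAC), bound by factors known to drive Cdkn1b, and so did a peak at 1.67 kb in the gene. Neither match lay in a footprint, and over all shared non-promoter peaks 0.787% of FOXO matches lay in footprints of both libraries. Cdkn1b held 9 shared non-promoter peaks. At 27.2 kb, in an intron of the non-coding RNA Lockd, a peak had 1.86 and 1.74, nearly the same in both libraries. It is shown for a CTCF match in footprints of 32 bp and 28 bp. Of all shared non-promoter peaks, 14.2% held a CTCF match and 75.3% of those matches were in footprints of both libraries.
Cdkn1b, chr6:134947521-134947680, plus strand: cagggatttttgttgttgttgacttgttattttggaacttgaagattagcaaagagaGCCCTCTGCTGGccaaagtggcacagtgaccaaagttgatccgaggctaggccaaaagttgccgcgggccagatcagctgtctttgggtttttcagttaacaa

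The INK4 genes are neighbours on chromosome 4, and their promoters differed. Cdkn2b was open near the median of open genes. Of the alternative promoters of Cdkn2a, the one of Arf was open at a low level and the one of Ink4a was at the limit of detection.

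Cdkn2a lies on chr4:89274471-89294653 on the minus strand. It encodes the kinase inhibitor Ink4a and, from a separate first exon and reading frame, Arf, which stabilises p53 by binding Mdm2. At the Arf start the promoter peak had 2.07 and 1.16, a mean of 1.61 ± 0.645 that exceeded 18.2% of open genes. The called peak spanned 520 bp in replicate 1 and 80 bp in replicate 2. All 520 bases carried a listed q-value in both libraries, at or below 0.001 for 520 in replicate 1 and 495 in replicate 2. The shorter call in replicate 2 thus does not mark the extent of low q-values. The lowest listed q-values within 500 bp of that start were 5.822e-11 and 9.049e-08. A peak of 0.501 lay 0.393 kb inside the gene in replicate 1 alone. At the Ink4a start, 12.5 kb further in, a peak of 34 bp with 0.501 was called in replicate 1 alone. The lowest listed q-value there was 0.02006 in replicate 1, and replicate 2 listed no base within 500 bp. Cdkn2a had no shared peak away from its start sites. In the intergenic stretch, a peak of 0.458 at -0.786 kb was called in replicate 2 alone. The lowest q-value listed over it was nevertheless lower in replicate 1, at 0.001555, than in replicate 2, at 0.01916.

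Cdkn2b, which encodes the inhibitor Ink4b, a target of TGF-beta signalling, lies on chr4:89306299-89311039 on the minus strand. The peak at its start had 5.48 and 4.05, a mean of 4.76 ± 1.01 above 46.8% of open genes, and a companion 0.398 kb inside the gene had 5.39 and 2.53. The start peak held a CRE match, TGACGTCA, 36 bp upstream of the start and an SP/KLF match 13 bp inside the gene, each in footprints of both libraries. The CRE lay in a footprint of 36 bp in replicate 1 and 34 bp in replicate 2 that shared one edge. Of all shared promoter peaks 3.83% held a CRE match, and 67.7% of these matches lay in footprints of both libraries. The stretch ahead of the start is printed.
Cdkn2b, chr4:89311040-89311160, minus strand: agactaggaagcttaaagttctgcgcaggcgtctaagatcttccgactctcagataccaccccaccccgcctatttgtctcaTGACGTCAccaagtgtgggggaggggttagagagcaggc

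Upstream of Cdkn2b, 6 shared peaks lay between -49.5 and -175 kb. The site at -117 kb had 1.09 in both libraries, the one at -175 kb 0.983 and 0.746, and the one at -111 kb 0.697 and 0.864. They were weak beside the promoter, and 2 of the 6 were higher in replicate 2. The last of the named sites held a match to the NR3C motif, which the glucocorticoid, androgen and progesterone receptors bind. The match, 89422154 to 89422166, was covered only in part by footprints of both libraries. They were of 16 bp in replicate 1, 89422147 to 89422162, and of 7 bp in replicate 2, 89422156 to 89422162. An NR3C match was present in 1.04% of all shared non-promoter peaks, and 2.57% of such matches were in footprints of both libraries. The site, chosen for printing after its values were seen, is in an intron of Gm12610.
Cdkn2b, chr4:89421981-89422220, minus strand: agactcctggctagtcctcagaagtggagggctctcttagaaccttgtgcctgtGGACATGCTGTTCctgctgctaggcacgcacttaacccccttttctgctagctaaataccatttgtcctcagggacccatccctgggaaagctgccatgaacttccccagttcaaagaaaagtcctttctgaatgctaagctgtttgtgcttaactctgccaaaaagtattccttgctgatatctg

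Over the 21 motifs searched, the central 300 bp of the genes' paired peaks held 118 matches. Of these, 16 lay in footprints of both libraries, spread over 10 peaks of 6 genes, Ccnd2, Ccnd3, Cdk4, Cdkn1a, Cdkn1b and Cdkn2b. At all shared non-promoter peaks, the share of matches in footprints of both libraries ran from 0.787% for FOXO to 75.3% for CTCF. A share over the motifs together is not given here, so the count describes these genes alone and is no excess over other peaks. Of the 16 matches in footprints of both libraries, SP/KLF gave 7, CTCF 3 and the E-box 2. The remaining matches were 1 each of CRE, STAT, C/EBP and NR3C. The CTCF match not yet described was at a weak site of Ccnd2 at -121 kb, with 0.495 and 0.288, and the C/EBP match (TTGCNNAA) was in the promoter peak of Ccnd2 at 0.332 kb. E2F matches were present at Ccnd1, at -1677 bp, and at Ccnd2, at -3019 bp, and neither was in a footprint, where 17.8% of E2F matches at all non-promoter peaks lay in footprints of both libraries. NR5A matches (CAAGGNCA), the motif of the steroidogenic factors of granulosa and theca cells, were present at 6 genes. There were 3 at Ccnd2, 2 each at Ccnd3 and Cdk6, and 1 each at Ccnd1, Cdk4 and Cdkn2b. None of these lay in footprints of both libraries, as 9.96% of NR5A matches at all non-promoter peaks and 13% at all promoter peaks did. So few matches cannot be told apart from these shares. The one at -1596 bp of Ccnd1 lay in a footprint of replicate 1. A match is a description of the letters and not a site of binding.

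**Figure D3:**
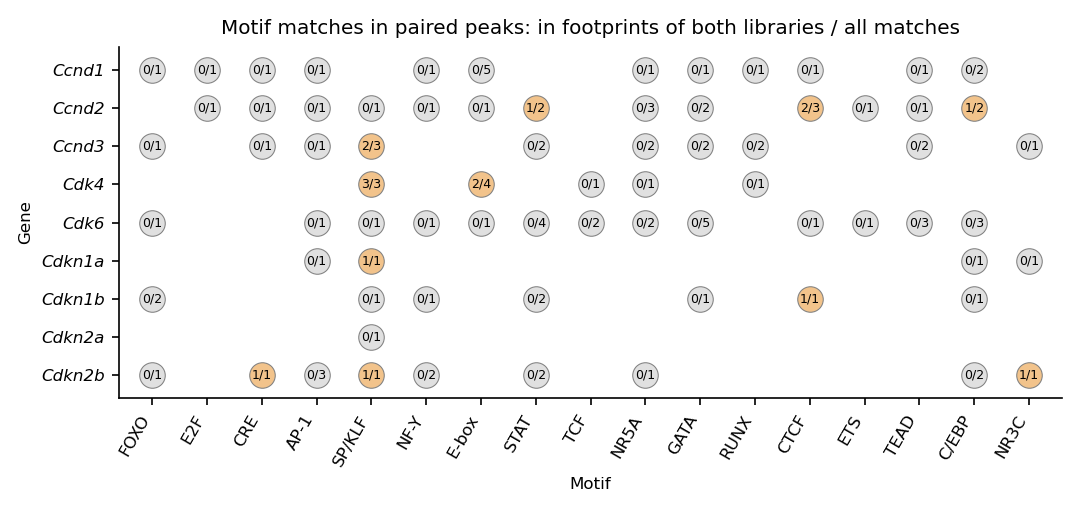
Motif matches in the central 300 bp of paired peaks, for each gene (rows) and each motif with at least 1 match (columns), written as matches in footprints of both libraries over all matches, with orange circles where the first is above 0. SP/KLF matches are footprinted at 4 genes, led by Cdk4 with 3 of 3, and Cdk4 alone has footprinted E-boxes, 2 of 4.

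The peaks of the genes held 301 footprints in replicate 1 and 253 in replicate 2, and 99 of replicate 1, or 32.9%, overlapped one of replicate 2, beside 46.4% of all footprints in peaks of replicate 1. The counts came to 1.11 and 0.947 footprints per 100 bp of peak, beside 1.12 and 1.00 over all peaks. At least 1 footprint was present in 102 peaks of replicate 1, or 89.5% against 81.2% of all peaks, and in 83 peaks of replicate 2, or 76.9% against 78% of all peaks. The density at these genes was thus near that of the whole libraries.

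In base composition, the promoter windows of the genes ranged in median GC content from 60.7% at Ccnd2 to 67% at Cdkn2a, beside 64% over all shared promoter peaks. The median ratio of observed to expected CpG was highest at Cdkn2a, at 1.22 in 1 window, and lowest at Cdk4, at 0.566 over 2 windows. Over all promoters it was 0.758. The windows of Cdk4 are those of its strong promoter peak and of the weak internal peak at 0.987 kb. These peaks had GC contents of 66.9% and 55.6%, so the median does not describe the strong promoter alone. Among the other sites, Ccnd1, Cdkn1a and Cdkn1b had median CpG ratios of 0.556, 0.601 and 0.576, above the 0.262 of all non-promoter peaks. Those of Ccnd2, Ccnd3, Cdk6 and Cdkn2b ran from 0.247 to 0.329, near that of all non-promoter peaks.

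The libraries were then compared peak by peak. Of the genes' peaks, 84 of replicate 1 (73.7%, against 75.5% of all peaks) and 85 of replicate 2 (78.7%, against 71.5%) overlapped a peak of the other library. One-to-one matching gave 77 pairs. The 18 promoter pairs were lower in replicate 2 without exception, with a median log2 ratio of -0.59. Across the genome the promoter value was lower in replicate 2 at 96.7% of open genes. Of the 25 pairs inside the genes 20 were lower, and of the 34 pairs outside 28 were lower, both with a median of -0.32. Over all pairs of the genome, of every class together, the median was -0.41. The share of all such pairs lower in replicate 2 is not given here by class, so the counts describe these genes alone. Peaks with a partner were higher than those without, with medians of 1.28 against 0.567 in replicate 1 and of 0.982 against 0.484 in replicate 2. Unpaired peaks reached 8.44 in replicate 1, at the divided promoter of Cdkn1b, and 2.10 in replicate 2.

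**Figure D4:**
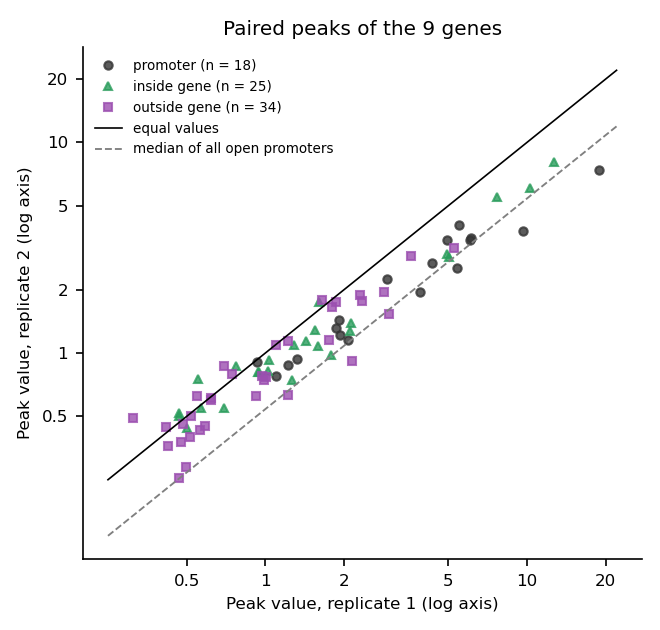
Values of the 77 paired peaks in replicate 1 (horizontal, log axis) and replicate 2 (vertical, log axis), as circles for promoters, triangles inside genes and squares outside, with a solid line at equal values and a dashed line at the median ratio of all open promoters. All 18 promoter pairs lie below the solid line, and weak distal pairs lie on both sides of it.

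The promoter value itself was lower in replicate 2 at all 9 genes, as it was at 96.7% of open genes. After the genome-wide median of -0.88 was subtracted, the 9 log2 ratios had a median of 0.05. They ran from -0.46 at Ccnd3 and Cdk4 and -0.41 at Cdkn1b to 0.40 at Ccnd1 and 0.45 at Cdkn2b, and the SD over all open genes was 0.39. Several of these directions rest on the peak taken as the promoter. With the most upstream start site alone, Ccnd3 turned to 0.19 and Ccnd2 from -0.10 to 0.45. The one-to-one pair of the divided Cdkn1b promoter had 0.36 in place of -0.41. For Ccnd1 a reach of 1000 bp gave 0.06. With the median of distal pairs, -0.29, subtracted instead, the median over the 9 genes was -0.54 and all 9 were below 0. Each library was taken as 1 animal, so a difference between animals and one between libraries cannot be told apart.

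The rest of the cell cycle machinery was open as well. In a list of 39 other cell cycle genes, all 39 promoters were open in both libraries, beside 66.1% over the whole annotation, with a median promoter value of 6.41 against 4.76 for the 9 genes. The other cyclins and kinases were open for 10 of 10 genes and ran from Ccne1, cyclin E1, which drives entry into DNA replication, with 23.0 and 10.9, to the germ cell cyclin Ccna1 with 2.42 and 1.16. The other inhibitors, 4 of 4, ran by their mean from Cdkn2d, a further INK4 gene, with 21.4 and 10.1, to Cdkn1c, which encodes p57, with 6.93 and 2.62, while in replicate 1 Cdkn3 was the lowest, with 6.90. Cdkn2d was thus higher than Cdkn2a and Cdkn2b in both libraries, by more than the spread between them. The pocket proteins, the kinases' substrates, were open for 3 of 3 genes, from Rbl2 with 9.22 and 6.26 to Rb1 with 6.62 and 2.68. The E2F and DP factors, 10 of 10, ran by their mean from E2f3 with 13.3 and 8.24 to E2f2 with 4.27 and 2.99, but E2f8 was higher in replicate 1, with 14.1, and Tfdp1 lower in replicate 2, with 2.06. Among regulators of the set, 12 of 12, the highest was Ezh2, the Polycomb methyltransferase known to silence Cdkn2a, with 14.8 and 6.90. The lowest was Fbxw7, a ubiquitin ligase subunit that targets cyclin E, with 1.74 and 1.47.

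**Figure D5:**
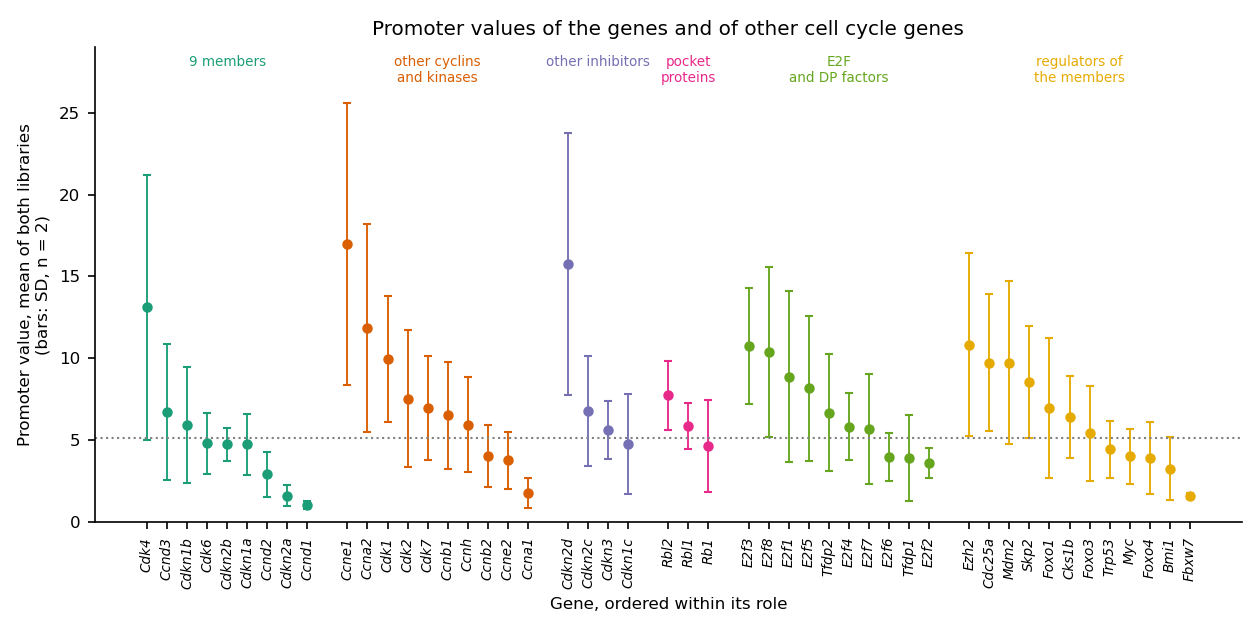
Promoter value, as the mean of both libraries with bars for the SD (n = 2), of the 9 genes and of 39 other cell cycle genes grouped by role, with a dotted line at the median of all open genes, 5.15. Cdk4 at 13.1 stands below Ccne1 and Cdkn2d, and Ccnd1 at 1.05 is the lowest of the genes shown under the 500 bp rule, while a reach of 1000 bp gives it 3.96.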

How the data were processed

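DNase-seq peaks, footprints and per-base q-values of 2 ovary libraries were used, on mm10 per the labels. The authors called intervals library by library, per the notes in the deposited files. Not given in the sources used here are the aligner, the callers and how the signal was scaled. The signal value of each peak was used as the authors deposited it. In each library 100% of values were whole multiples of 1 step, 0.00651 in replicate 1 and 0.00654 in replicate 2, within 0.05 of a step. That 1 step is 1 read was not shown, so no counting interval is given. The authors deposited q-values only up to 0.0499, and a footprint score of 0.01 in every line, which was not used.

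The longer of the deposited peak lists was read with Python 3.11.15, numpy 2.4.6 and pysam 0.24.0, and annotated with GENCODE M21. Figures were drawn with matplotlib 3.10.9. Peaks were shared where they overlapped by at least 1 bp, and pairs were mutual best overlaps. A promoter value is the highest value of a gene's promoter peaks. Footprints were counted once where they lay wholly inside a peak. Motifs were matched exactly on both strands in 300 bp about the centre of paired peaks and counted in a footprint with at least 50% of their bases. Besides those spelled out in the text they were E2F (TTTCCCGC or TTTGCCGC or TTTCGCGC or TTTGGCGC), AP-1 (TGANTCA), NF-Y (CCAATCA or CCAATGA), that of GATA factors (GATAAG), RUNX (TGTGGTT), ETS (CCGGAAGT), YY1 (AAGATGGCG), TEAD (CATTCCA or CATTCCT) and, by name alone, CTCF, NRF1, ERE, NR3C and p53. The AP-1 and CRE motifs, and E2F and SP/KLF, can overlap. On simulated data, 200 of 200 planted promoter peaks and 52 of 52 planted motifs were recovered. They were planted to meet the rules searched for, so this checks the code and not detection in these libraries.

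The genes and lists were chosen with earlier results of these data known. Named were the 9 genes, every promoter peak, up to 3 shared distal peaks per gene of highest mean value, and the highest and lowest other cell cycle gene of each role. Sequences were the strongest peak per gene with a motif in footprints of both libraries. Alternatives were the shorter list, a reach of 1000 bp, the most upstream start site, the nearest start site, an overlap of 50%, footprints by centre, centring on distal peaks, and each library alone. Added after seeing the data were any base of a peak within 500 bp and start sites of coding transcripts alone.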

Additional observations from a re-analysis of the deposited data

How the results depend on the processing

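Of 152 values recomputed under the alternatives, 133 stayed within the limit set for them and 19 moved. With the shorter peak list, 54 peaks of replicate 1 at the genes overlapped one of replicate 2, in place of 84. With the most upstream start site alone, the median promoter value was 2.59 in place of 4.76. Cdkn1a then gave no value and no ratio, and 8 of the 9 genes remained with a promoter peak in both libraries. Centring on distal peaks turned the median library ratio from 0.05 to -0.54, Ccnd1 from 0.40 to -0.19, Cdkn2b from 0.45 to -0.14, Cdk6 from 0.08 to -0.51, Cdkn1a from 0.07 to -0.52 and Cdkn2a from 0.05 to -0.54. The most upstream start site alone turned Ccnd3 from -0.46 to 0.19 and Ccnd2 from -0.10 to 0.45. Ccnd1 had a promoter value of 3.96 with a reach of 1000 bp or any base of a peak within 500 bp. The count of 99 shared footprints needs both libraries, and each library alone holds 253 to 301. All 9 genes and all 39 other cell cycle genes had a promoter peak in each library, also with the shorter list, with a reach of 1000 bp, with any base of a peak within 500 bp and with coding start sites alone. No paired analysis was possible because there is 1 group. The depth is unknown, so for a site called in 1 library alone, such as that at the Ink4a start, a difference between the animals and one in detection cannot be told apart.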
